A study of Arabidopsis thaliana with 9 samples.

Results

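The cob and cox genes of the mitochondrial genome are cob (ATMG00220), cox1 (ATMG01360), cox2 (ATMG00160) and cox3 (ATMG00730). They were taken by their identifiers as 4 of the 22254 genes of the deposited table, 118 of which carry mitochondrial identifiers, and all 4 passed the filter on low counts. RNA was sequenced from whole Arabidopsis thaliana seedlings of the accession Col-0, grown for 2 weeks in shaken liquid Murashige and Skoog medium with 16 h of light at 22 °C and 8 h of dark at 18 °C. The 9 libraries comprised 3 of the wild type (wt) and 3 of each of the knock-out lines clpp2-1 and clpp2-2, both in the Col-0 background. Both lines carry mutations of CLPP2 (AT5G23140), which supplies the catalytic core of the mitochondrial Clp protease. Neither the insertion sites nor whether the replicates were separate cultures is stated, so p-values measure only the spread between these libraries, which may be technical.

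In respiratory electron transport, complex III passes electrons from ubiquinol to cytochrome c, and complex IV (cytochrome c oxidase) passes them from cytochrome c to oxygen. cob encodes apocytochrome b, the only subunit of complex III made inside the mitochondrion. cox1, cox2 and cox3 encode the core of complex IV, and every other subunit of both complexes is encoded in the nucleus and imported. Plant mitochondrial transcripts are cut from longer precursors, may be spliced, and are edited from C to U at defined positions before translation.

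The 4 genes differ in how much their RNA must be processed, which is the reason for showing the stretches below. In the RefSeq assembly TAIR10.1, cob spans 181677 to 182858 on the minus strand of the mitochondrial chromosome, a single coding exon of 1182 bp with 14 annotated editing sites. cox1 spans 114762 to 116345 on the minus strand, a single coding exon of 1584 bp with 0 annotated sites. cox3 spans 329976 to 330773 on the minus strand, a single coding exon of 798 bp with 9 sites. cox2 alone of the 4 carries an intron: it spans 6264 to 8389 on the plus strand, with exons of 700 and 83 coding bp around an intron of 1343 bp from 6964 to 8306, and has 16 sites, the most per coding length of the 4. Of these sites, 6 in cob, 3 in cox2 and 2 in cox3 are annotated as of minor frequency. The deposited table holds no coordinates and was made on TAIR10, whose mitochondrial sequence may differ, so genes were matched by symbol.

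The coding stretch of 90 bases with the most annotated editing sites is shown for each gene as DNA, 5′ to 3′ on the coding strand. The C of each annotated site is in capitals, sites of minor frequency included. For cox1, which has none, the first 90 bases are given.
cob coding bases 835 to 924: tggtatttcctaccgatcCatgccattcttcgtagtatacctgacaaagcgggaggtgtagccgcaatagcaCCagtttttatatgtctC
cox1 coding bases 1 to 90: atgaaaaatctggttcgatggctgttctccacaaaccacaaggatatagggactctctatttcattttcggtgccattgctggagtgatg
cox2 coding bases 1 to 90: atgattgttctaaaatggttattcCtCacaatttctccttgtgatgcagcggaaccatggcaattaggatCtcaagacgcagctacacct
cox3 coding bases 225 to 314: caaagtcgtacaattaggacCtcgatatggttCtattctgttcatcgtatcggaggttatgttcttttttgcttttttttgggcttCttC

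The cox2 transcript is the only one of the 4 that must be spliced, and its exon junctions are shown with the exon in capitals and the intron in lower case.
cox2 end of exon 1, bases 6924 to 7003: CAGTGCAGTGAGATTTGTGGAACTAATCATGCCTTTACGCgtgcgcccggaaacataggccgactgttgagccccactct
cox2 start of exon 2, bases 8267 to 8346: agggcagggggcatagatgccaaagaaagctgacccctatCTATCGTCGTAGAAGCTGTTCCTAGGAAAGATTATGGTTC
The counts are per gene and hold no reads, so spliced and unspliced cox2 RNA, and edited and unedited RNA of any gene, were not separated here.

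Nuclear copies of mitochondrial DNA bear on what the counts can mean. In TAIR10.1 the whole cob coding sequence recurs without a mismatch on chromosome 2 from 3450863 to 3452044 (AT2G07727), and the whole cox3 coding sequence from 3311854 to 3312651 (AT2G07687). A stretch of 306 bp, 39.1% of the cox2 coding length, recurs at 96.41% identity on chromosome 2 from 3346951 to 3347256 (AT2G07695), and cox1 had 0 matches of at least 100 bp at 95% identity. None of these nuclear genes has a row in the table, so reads of cob and cox3 cannot be assigned to one genome or the other. A second cox2 match, 103 bp at 96.12% identity, lies on chromosome 2 from 9830978 to 9831080 and overlaps no annotated gene. For cox1 and the rest of cox2 this search of TAIR10.1 found no such copy. A nuclear copy absent from that assembly would not have been seen.

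Library totals lay between 36043744 and 36477053, of which mitochondrial identifiers took 0.0537 to 0.114%, and the 4 genes had 180 to 835 counts per library. The exact Poisson 95% interval of the lowest count, 180 for cob, ran from 155 to 208, and such intervals cover counting error only and assume that the deposited counts were not rescaled. CLPP2 itself fell in both lines, from 44.6 ± 1.83 CPM (counts per 1000000 counts of the library, SD, n = 3) to 5.56 ± 0.616 and 4.60 ± 0.0708 in clpp2-1 and clpp2-2. Markers of leaf (4 genes) and root (6 genes) were present in every library, as whole seedlings require; their summed levels ran from 7004 to 10742, 8004 to 9240 and 9336 to 12270 CPM for leaf and from 2203 to 3643, 2070 to 2466 and 1676 to 2013 CPM for root in wt, clpp2-1 and clpp2-2. Seed storage genes (8) summed to 0.377 to 108 CPM in wt, 0.896 to 13.1 in clpp2-1 and 0.631 to 1.13 in clpp2-2, with the highest library of each of the first 2 genotypes numbered 1. The 4 flower genes summed to 1.27 to 2.69 CPM in wt, 1.99 to 2.91 in clpp2-1 and 0.796 to 1.41 in clpp2-2, where 1 of them, AP3, fell from 0.357 to 0.122 CPM (edgeR adjusted p = 0.0460). These AP3 levels are near the floor, and of the 4 flower genes in clpp2-2 DESeq2 called 0 and limma-voom 1. In clpp2-2 the root sum was below that of every wild-type library, and the flower sum below that of every clpp2-1 library; the part of either in the clpp2-2 results was not tested.

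In the wild type the 3 cox genes stood at one level and cob below them. Per kb of coding length, cox1 was at 8.91 ± 0.407, cox3 at 8.86 ± 0.415 and cox2 at 8.81 ± 0.403 CPM per kb (SD, n = 3 each), and their ranges overlapped. cob was at 4.73 ± 0.254 CPM per kb, below each cox gene in 3 of 3 libraries, and cox2 stood 1.86 times above it. In the mutants the order per kb changed, with cox2 first. This order rests on dividing by coding length, which leaves out untranslated ends and the cox2 intron. In CPM without that division cox1 was highest in each genotype, at 19.0 against 16.2 for cox2 in clpp2-1. In clpp2-2 these were 21.8 and 17.9 CPM. In clpp2-1 cox2 was at 20.7 ± 3.44, cox3 at 12.7 ± 0.841, cox1 at 12.0 ± 1.57 and cob at 4.75 ± 0.531 CPM per kb, and in clpp2-2 these levels were 22.9 ± 0.339, 15.2 ± 0.714, 13.7 ± 0.738 and 5.60 ± 0.436. In both lines the ranges of cox3 and cox1 overlapped, while cox2 lay above both and cob below both in every library.

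**Figure D1:**
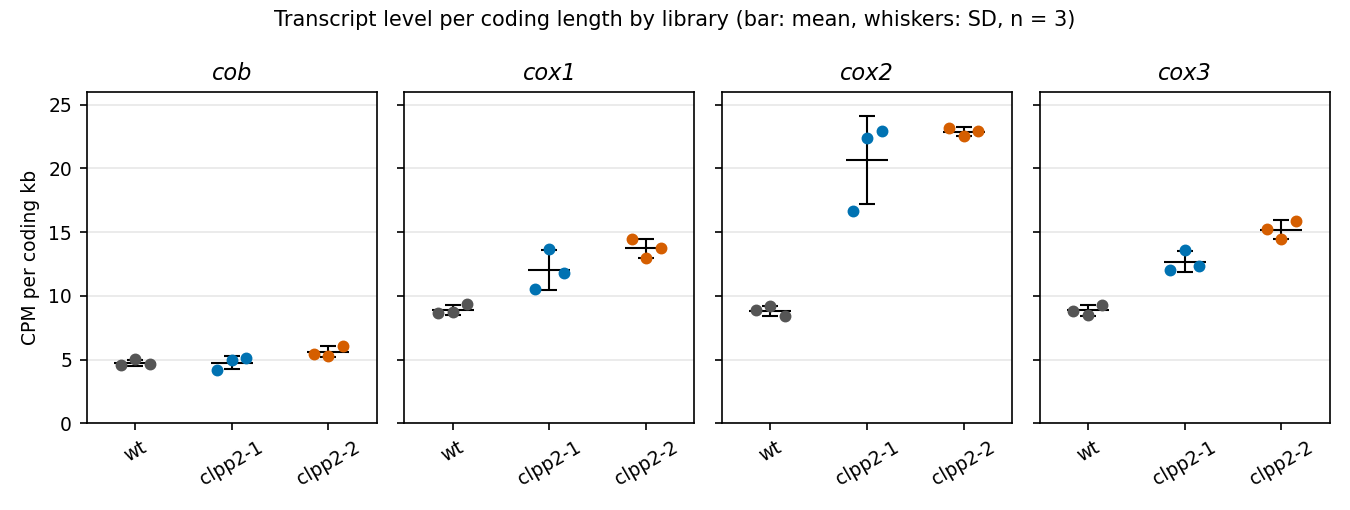
Transcript level of each gene (CPM per kb of coding length, linear axis from 0) in the 9 libraries, by genotype; each point is a library, the bar the mean and the whiskers the SD of 3 libraries. The wild-type points of the 3 cox genes lie together near 8.9, and the mutant cox2 points reach 16.7 to 23.2 while cob stays between 4.15 and 6.09.

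The comparison of each line with the wild type asks what loss of CLPP2 changed in these transcripts. The words rose and fell are used of a gene only where the edgeR quasi-likelihood test, adjusted by Benjamini-Hochberg across all 20294 tested genes, gave a p under 0.05. Both lines are compared with the same 3 wild-type libraries, so their results are not independent. The RNA is from whole seedlings, so more cells of a mitochondrion-rich type, more mitochondria per cell and more RNA per mitochondrion cannot be told apart.

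cox2, whose product holds the copper centre that takes electrons from cytochrome c, rose most of the 4 in both lines. Its counts were 252, 258 and 244 in wt, 480, 642 and 661 in clpp2-1, and 662, 624 and 636 in clpp2-2. Every mutant library lay above every wild-type library, and the first clpp2-1 library was the lowest of the mutants. The mean was 6.90 ± 0.316 CPM in wt, 16.2 ± 2.7 in clpp2-1 and 17.9 ± 0.266 in clpp2-2 (SD of 3 libraries). By the edgeR test this was a 2.34-fold rise in clpp2-1 (log2 1.23, SE 0.116, adjusted p = 0.00427) and a 2.60-fold rise in clpp2-2 (log2 1.38, SE 0.117, adjusted p = 0.000653). Fitted on the wt and clpp2-1 libraries alone, the clpp2-1 change kept its size (log2 1.23) but lost its call (edgeR adjusted p = 0.0541).

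cox3, a core subunit with no redox centre of its own, stood second. Its counts were 254, 243 and 276 in wt, 353, 399 and 363 in clpp2-1, and 444, 408 and 449 in clpp2-2, and the 3 genotypes did not overlap. The mean went from 7.07 ± 0.331 CPM in wt to 10.1 ± 0.671 in clpp2-1 and 12.1 ± 0.570 in clpp2-2. It rose 1.72-fold in clpp2-2 (edgeR log2 0.78, SE 0.0782, adjusted p = 0.00132). In clpp2-1 the change was 1.43-fold and did not pass (edgeR log2 0.52, SE 0.0782, adjusted p = 0.0644), while DESeq2 called it (adjusted p = 0.000970).

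cox1 encodes the subunit that holds the site of oxygen reduction. Its counts were 496, 495 and 552 in wt, 614, 794 and 687 in clpp2-1, and 835, 728 and 772 in clpp2-2. All mutant libraries lay above all wild-type libraries, and the lines overlapped each other. The mean was 14.1 ± 0.644, 19.0 ± 2.48 and 21.8 ± 1.17 CPM in wt, clpp2-1 and clpp2-2. It rose 1.54-fold in clpp2-2 (edgeR log2 0.63, SE 0.0953, adjusted p = 0.00836), and in clpp2-1 it was 1.35-fold higher without passing (edgeR log2 0.43, SE 0.0954, adjusted p = 0.473; DESeq2 adjusted p = 0.0481).

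cob was the member with the smallest difference from the wild type. Its counts were 195, 213 and 203 in wt, 180, 215 and 224 in clpp2-1, and 234, 220 and 255 in clpp2-2. The clpp2-1 libraries spread across the wild-type range on both sides, and the clpp2-2 libraries lay above it. The mean was 5.59 ± 0.300, 5.61 ± 0.627 and 6.61 ± 0.515 CPM. Neither line passed the edgeR test: log2 0.01 in clpp2-1 (SE 0.113, adjusted p = 0.993), with a sign that turned when any of 4 libraries was left out (to log2 -0.05 at the lowest), and log2 0.24 in clpp2-2 (SE 0.113, adjusted p = 0.191).

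Across the 4 genes, 1 of 4 rose in clpp2-1, against a background of 0.153% of all tested genes called higher and 0.0246% called lower, and 3 of 4 rose in clpp2-2, against 5.5% higher and 4.57% lower. Of the 116 mitochondrial genes tested, the 4 included, edgeR called 26 higher and 1 lower in clpp2-1. In clpp2-2 it called 49 higher and 1 lower. Calls were thus more common among mitochondrial genes in general than among all genes. With the replicate number as a block, 23 genes in all changed in clpp2-1 in place of 36, and cox2 was still among them (edgeR). Every library of clpp2-1 lay above every wild-type library for 3 of 4 genes (background 5.17%), and every library of clpp2-2 for 4 of 4 (background 17.0%). For the mean of both lines the median log2 change of the 4 genes was 0.59, against 0.40 over the 116 mitochondrial genes tested and -0.01 over all genes.

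With the mutant lines averaged and set against wt, edgeR called 3 of 4 genes higher, where 0.714% of all genes were called higher and 0.35% lower. Of the 116 mitochondrial genes tested, it called 37 higher and 1 lower. cox2 was 2.47-fold higher (log2 1.30, adjusted p = 0.00111), cox3 1.57-fold (log2 0.65, adjusted p = 0.00456) and cox1 1.44-fold (log2 0.53, adjusted p = 0.0290), while cob was at log2 0.12 (adjusted p = 0.502) by the same test. All 6 mutant libraries lay above all 3 wild-type libraries for these 3 cox genes (background 2.47%). The call of cox1 was the least firm: it was lost with the replicate block (edgeR adjusted p = 0.0832), with wt 1 and clpp2-1 1 left out together (0.0722), and without wt 1, wt 3, clpp2-1 3 or any one clpp2-2 library (0.0680 to 0.121).

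Between the lines, clpp2-2 stood above clpp2-1 in all 4 genes, by log2 0.15 for cox2, 0.20 for cox1, 0.24 for cob and 0.26 for cox3, and none of these differences passed. Their edgeR adjusted p were 0.494, 0.277, 0.272 and 0.10, against a background of 3.97% of genes called in either direction. Before adjustment 1 of 4, cox3, had a p under 0.05, and DESeq2 and limma-voom called 0. For 2 of 4 genes, cob and cox3, all clpp2-2 libraries lay above all clpp2-1 libraries, as did 15.7% of all genes.

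The counts of the 4 genes did not change in step, which ratios within a library show free of library size. Reads of cob and cox3 may include those of their nuclear copies, and so may every ratio with either gene. For each library 15 measures were taken, with exact two-sided permutation tests adjusted over the 15; 3 against 3 libraries cannot go below p = 0.1, and 6 against 3 not below p = 0.0119. The log2 ratio of cox2 to cob was 0.37, 0.28 and 0.27 in wt, 1.42, 1.58 and 1.56 in clpp2-1, and 1.5, 1.5 and 1.32 in clpp2-2. The mutant values lay far above the wild-type ones in both lines, and the lines overlapped. Over both lines the ratio was higher by log2 1.18 (exact permutation p = 0.0119, adjusted p = 0.0149, higher in 6 of 6 libraries).

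cox2 also rose against the other core subunits of its own complex. The log2 ratio of cox2 to cox1 was -1.03 ± 0.128 in wt, -0.24 ± 0.161 in clpp2-1 and -0.28 ± 0.0563 in clpp2-2 (SD of 3 libraries, all mutant libraries above all wild-type ones, exact permutation p = 0.1 per line), and over both lines the difference was 0.77. The ratio of cox2 to cox3 rose by log2 0.65, of cox3 to cob by 0.53 and of cox1 to cob by 0.40 over both lines (exact permutation p = 0.0119 and adjusted p = 0.0149 each). The remaining pair, cox3 to cox1, differed by log2 0.12 and missed the threshold after adjustment (exact permutation p = 0.0476, adjusted p = 0.0549), though not without clpp2-1 2 (adjusted p = 0.0412). Of the 15 measures 12 passed over both lines, and all 12 missed the threshold where the exact permutation test has less reach: without wt 1 and clpp2-1 1, the libraries with the most seed storage RNA of their genotypes (adjusted p = 0.0595), and with same-numbered libraries paired as a block (adjusted p = 0.288). As paired, the block allows no exact permutation p below 0.25, so no measure could pass and it decides nothing about them. Without wt 1 and clpp2-1 1 the smallest possible is 0.0476, which each of the 12 reached. So 5 of the 6 pairs changed over both lines, and between the lines the exact permutation p of the 6 pairs ran from 0.4 to 0.9.

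**Figure D2:**
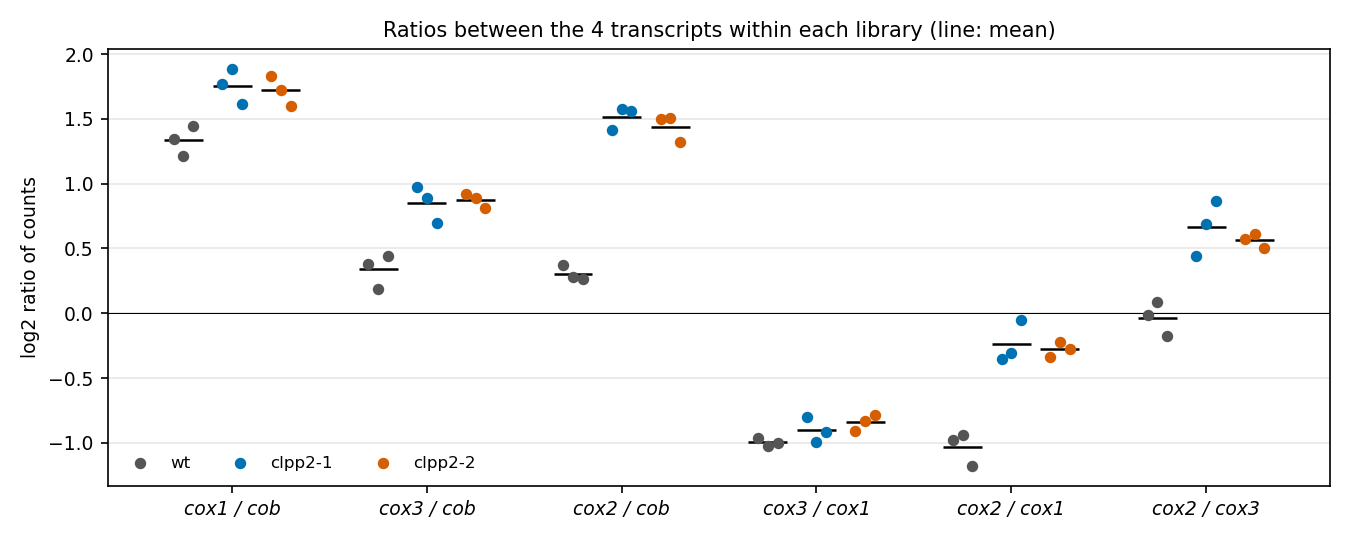
Log2 ratio of the counts of each pair of the 4 genes within each library (y axis), for the 6 pairs (x axis); points are libraries, colours genotypes and lines the mean of 3. The wild-type and mutant points separate in 5 pairs and most widely for cox2 over cob, at 0.27 to 0.37 against 1.32 to 1.58, and overlap for cox3 over cox1.

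As a share of all mitochondrial counts, cox2 grew and the other 3 shrank over both lines. That total was itself larger in the mutants, at 19450 to 21210 counts in wt, 31176 to 38700 in clpp2-1 and 37805 to 41515 in clpp2-2. A share could therefore shrink where the count of the gene did not. cox2 took 1.25 ± 0.0923% in wt, 1.71 ± 0.199% in clpp2-1 and 1.61 ± 0.0379% in clpp2-2 (SD of 3 libraries). cob took 1.02 ± 0.0712, 0.596 ± 0.0515 and 0.593 ± 0.0358%, cox1 2.56 ± 0.0374, 2.01 ± 0.0413 and 1.95 ± 0.0526%, and cox3 1.28 ± 0.0288, 1.07 ± 0.0523 and 1.09 ± 0.0235%. For each gene the 6 mutant libraries were all on one side of the 3 wild-type libraries (exact permutation p = 0.0119, adjusted p = 0.0149). The 4 together went from 6.11 ± 0.102% to 5.39 ± 0.227% in clpp2-1 and 5.24 ± 0.00178% in clpp2-2, with the same exact permutation p over both lines. The SD of 0.00178 lies below that of every single gene in clpp2-2 (0.0235 to 0.0526) and is no guide to the precision of the share. With the named protein-coding genes alone as the total, the drop of the 4 together missed the threshold (difference -0.616 percentage points, exact permutation test, adjusted p = 0.0549).

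**Figure D3:**
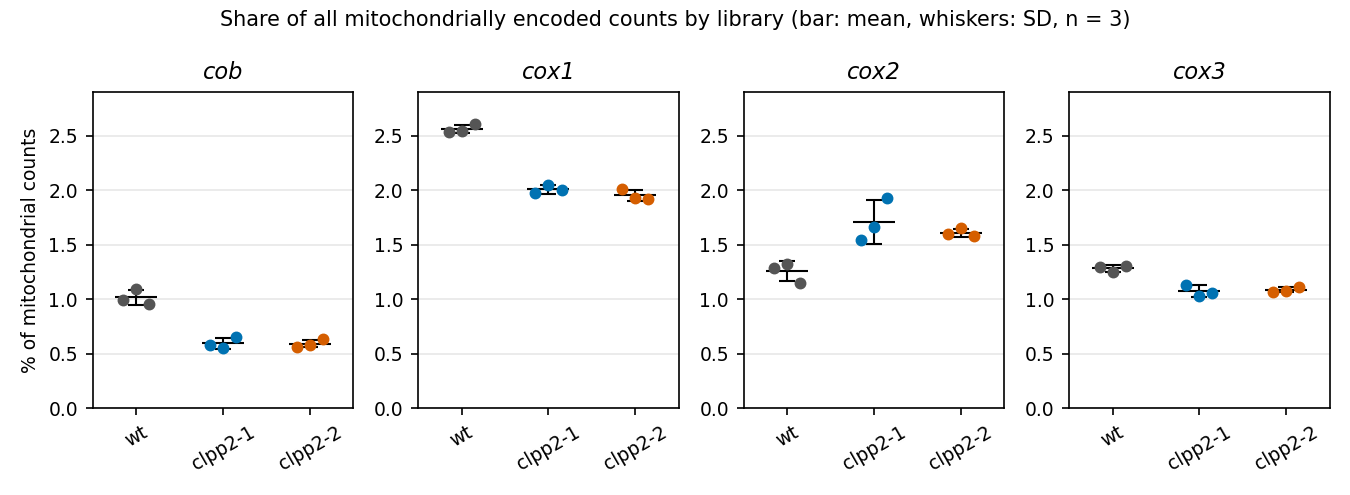
Share of all mitochondrially encoded counts (percent, linear axis from 0) taken by each gene in the 9 libraries; points are libraries, bars the mean and whiskers the SD of 3. All mutant points lie below all wild-type points for cob, cox1 and cox3 and above them for cox2.

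Set beside other genes of the mitochondrial genome, the cob and cox genes were neither the most nor the least changed. Of 116 mitochondrial genes tested and ranked from the largest log2 change down, cox2 was number 24 in clpp2-1 and 26 in clpp2-2, cox3 number 42 and 44, cox1 number 44 and 53, and cob number 71 and 82. Among the 6 genes of complex V, the ATP synthase, edgeR called 4 higher in clpp2-1 and 5 in clpp2-2, with medians of log2 1.16 and 1.34. For atp6-1, atp9 and atp1 the level over both lines was 2.68-, 3.66- and 2.1-fold that of the wild type (edgeR adjusted p = 4.87e-05, 8.80e-05 and 0.000519). The summed cob and cox counts fell against those of complex V by log2 0.43 over both lines, lower in 6 of 6 libraries (difference -0.43, exact permutation p = 0.0119, adjusted p = 0.0149).

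Complex I, the NADH dehydrogenase, sat closer to the cob and cox genes. Of its 13 tested genes 3 rose in clpp2-1 and 8 in clpp2-2, with medians of log2 0.29 and 0.66, and nad7, nad1C and nad5A were 2.40-, 2.32- and 1.90-fold higher over both lines (edgeR adjusted p = 0.000519, 0.00577 and 0.00628; for nad5A 0.0700 without wt 1 and clpp2-1 1). With the replicate block 1 of the 3 calls in clpp2-1 was left, nad7, while nad1C (edgeR adjusted p = 0.0868) and nad3 (0.0801) were lost, as they were in 6 and 8 of the 9 fits with 1 library left out, and 0 were left without wt 1 and clpp2-1 1. The clpp2-2 count was 5 without wt 3, clpp2-2 2 or clpp2-2 3. The summed ratio of the 4 genes to complex I differed by log2 -0.08 over both lines (exact permutation p = 0.345), and turned to log2 0.02 with the mean of log2 counts in place of the sum. Of the 14 genes for ribosomal proteins, cytochrome c maturation, the maturase matR and the transporter mttB, 2 rose and 1 fell in clpp2-1 and 7 rose and 1 fell in clpp2-2, with medians of log2 0.11 and 0.55. With the replicate block 1 call in clpp2-1 was left, rps12, while matR (edgeR adjusted p = 0.0988) and ccmC (0.104) were lost, matR also in 7 and ccmC in 9 of the 9 fits with 1 library left out, and 0 were left without wt 1 and clpp2-1 1. In clpp2-2 5 calls in place of 8 were left without wt 1, wt 3 or any one clpp2-2 library. rps12 (2.54-fold), matR (1.99-fold) and rpl5 (1.47-fold) rose over both lines (edgeR adjusted p = 0.00243, 0.00577 and 0.0179), matR not without wt 1 and clpp2-1 1 (0.0560) and rpl5 not without wt 3 (0.0915) or clpp2-2 2 (0.0516). The gene that fell in each line was ccmC, whose product takes part in attaching heme to c-type cytochromes, the partners of both complexes; it was named after its values were seen and stood 2.08-fold lower in clpp2-1 and 1.48-fold lower in clpp2-2 (edgeR adjusted p = 0.0355 and 0.0425), the latter call lost in 8 of 9 fits with 1 library left out (0.0532 to 0.129).

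**Figure D4:**
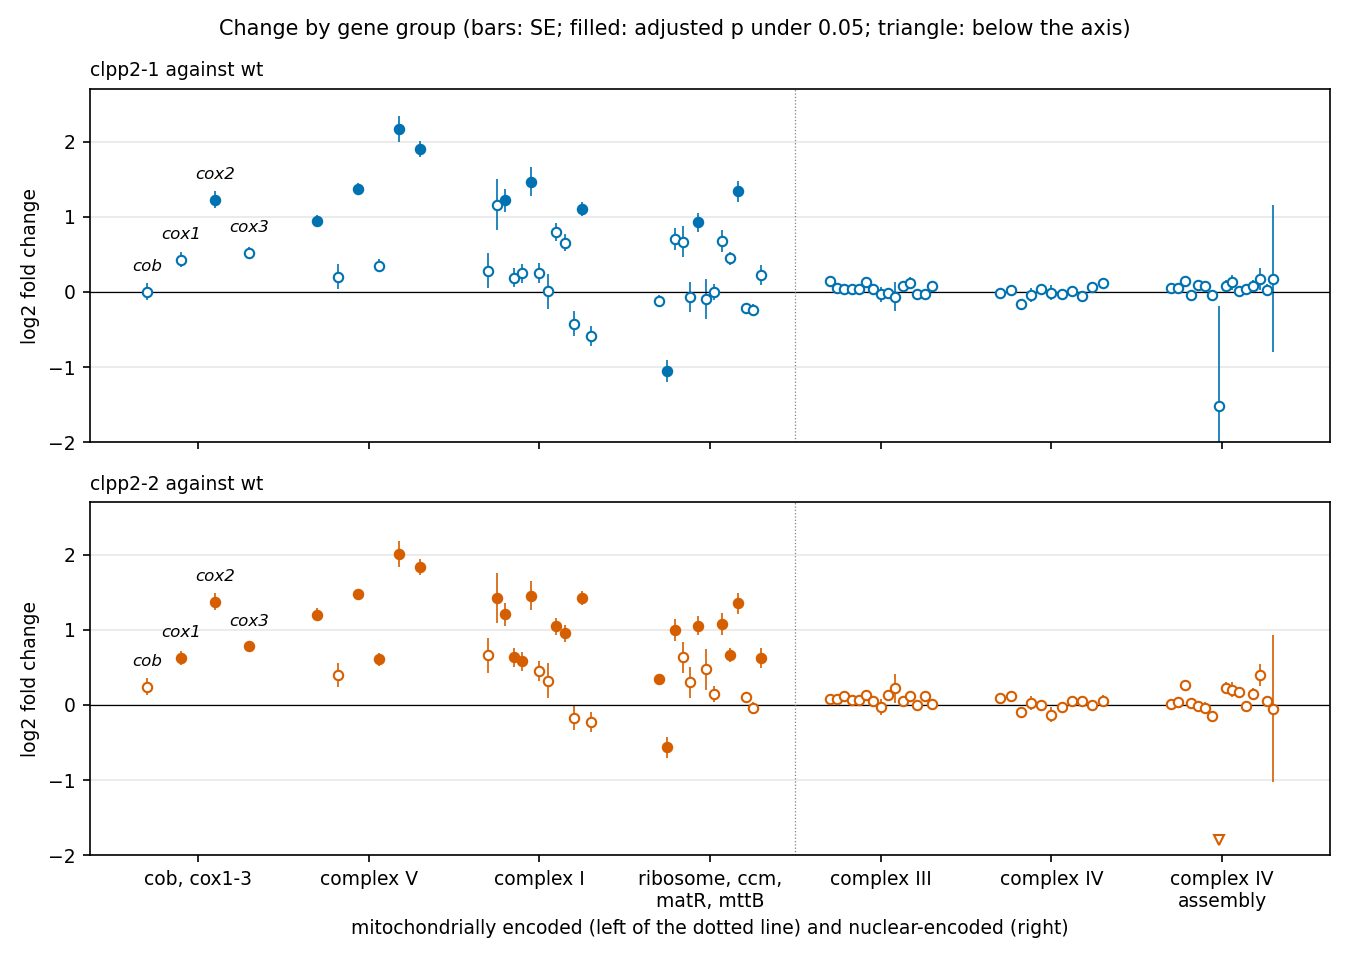
Log2 fold change (y axis, edgeR, bars SE) of every tested gene of 7 groups in clpp2-1 (top) and clpp2-2 (bottom) against wt; filled points have an adjusted p under 0.05, and the triangle marks a gene below the axis. The mitochondrially encoded groups left of the dotted line spread widely, with cox2 above cox1, cox3 and cob, while the nuclear-encoded subunits of complexes III and IV lie between -0.16 and 0.22.

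None of the nuclear-encoded subunits passed the edgeR test. Of the 15 nuclear genes of complex III edgeR called 0 in either line or over both, with median log2 changes of 0.04 in clpp2-1 and 0.07 in clpp2-2. Before adjustment 2 had a p under 0.05 in each comparison with the wild type, limma-voom called 0, and DESeq2 called 1 in clpp2-2. Of all tested genes edgeR called 0.153% higher and 0.0246% lower in clpp2-1, 5.5% and 4.57% in clpp2-2, and 0.714% and 0.35% over both. At these shares a list this short would hold few calls or none, here and in the nuclear lists that follow. All libraries of the line lay above all wild-type ones for 2 of the 15 in clpp2-1 (background 5.17%) and 7 in clpp2-2 (background 17.0%). QCR10, a small subunit, was at 63.0 CPM in wt and 69.4 CPM in both lines (log2 0.14 over both, edgeR adjusted p = 0.149), CYC1-1, a cytochrome c1, at log2 0.11 (adjusted p = 0.205) and QCR8-2 at log2 0.12 (adjusted p = 0.342). Summed, the nuclear complex III genes lay at 2375 to 2422 CPM in wt, 2383 to 2537 in clpp2-1 and 2497 to 2606 in clpp2-2, and all clpp2-2 libraries lay above all wild-type ones. The log2 ratio of cob to this sum was -8.75 ± 0.0645 in wt, -8.79 ± 0.126 in clpp2-1 and -8.59 ± 0.127 in clpp2-2 (SD of 3 libraries). It overlapped the wild type in clpp2-1 (difference -0.04, exact permutation p = 0.8), while all clpp2-2 libraries lay above those of wt (0.16) and of clpp2-1 (0.20), each at the smallest p of 3 against 3 (exact permutation p = 0.1). Over both lines the difference was log2 0.06 (exact permutation p = 0.548).

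For complex IV, 11 of the 12 listed nuclear genes were tested, edgeR called 0 in each comparison with the wild type, and the medians were log2 -0.01 and 0.03. Before adjustment 1 had a p under 0.05 in each comparison, and DESeq2 and limma-voom called 0. COX5b-3, COX5b-2 and COX7a, all nuclear subunits, stood at log2 -0.13, 0.07 and 0.09 over both lines (edgeR adjusted p = 0.215, 0.353 and 0.472). The summed level of the 11 genes overlapped between all 3 genotypes, at 811 to 859, 827 to 851 and 844 to 878 CPM. The log2 ratio of cox1, cox2 and cox3 together to these nuclear partners was -4.91 ± 0.0806 in wt, -4.22 ± 0.156 in clpp2-1 and -4.05 ± 0.0383 in clpp2-2 (SD of 3 libraries). Over both lines it rose by log2 0.77, a factor of 1.71, in 6 of 6 libraries (exact permutation p = 0.0119, adjusted p = 0.0149).

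Genes that build complex IV or act on these transcripts gave few differences. Of 16 assembly factors edgeR called 0, with 0, 5 and 1 at an unadjusted p under 0.05 in clpp2-1, clpp2-2 and both; limma-voom called 0 and DESeq2 called 2 in clpp2-2. COX15, a heme a synthase, stood at 23.8, 26.4 and 28.6 CPM in wt, clpp2-1 and clpp2-2 (edgeR log2 0.26 in clpp2-2, adjusted p = 0.0528). In clpp2-2 it crossed the edgeR threshold with DESeq2 size factors (adjusted p = 0.0474), with library sizes without organelle genes (0.0478) and without clpp2-1 2 (0.0423). The DESeq2 Wald test also called it there (adjusted p = 0.0170). OXA2b, of the family of inner membrane insertases, and HCC1, related to the copper chaperone Sco1 of yeast, were at log2 0.40 and 0.23 in clpp2-2 (edgeR adjusted p = 0.107 and 0.10). The gene below the axis in the plot by gene group is COX19-2, at 0.971 ± 0.704 CPM in wt and 0.103 ± 0.179 in clpp2-2, which did not pass (edgeR adjusted p = 0.192) and was named after its values were seen.

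The electron carrier between the complexes, cytochrome c, is encoded by a pair of nuclear genes, CYTC-1 and CYTC-2, at log2 0.04 and 0.19 over both lines (edgeR adjusted p = 0.750 and 0.220). Of 7 nuclear factors known to make or process these RNAs, edgeR, DESeq2 and limma-voom called 0 in each comparison with the wild type, with 0, 0 and 1 at an unadjusted p under 0.05. They comprise the RNA polymerases RPOTm and RPOTmp, RPF2, which trims the 5′ end of cox3 RNA, COD1, which is needed for editing of cox2, and mCSF1, nMAT2 and the helicase PMH2, which take part in splicing of mitochondrial introns, that of cox2 among them for mCSF1 and nMAT2. PMH2, RPOTm and RPF2 stood at log2 0.10, 0.09 and 0.22 over both lines (edgeR adjusted p = 0.232, 0.350 and 0.498).

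The genes whose log2 CPM followed each member most closely over the 9 libraries were looked up among all 20294 tested genes, as a description of libraries that share genotype, depth and RNA. For cox2 the 3 with the highest Pearson r were the mitochondrial identifiers ATMG01090 (r = 0.990), ATMG01010 (0.989) and ATMG01200 (0.988), and 32 of its 50 closest were mitochondrial. For cox3 they were nad5C (0.988), nad7 (0.983) and atp1 (0.983), with 28 of 50. For cox1 they were AT2G07774 (0.989), atp6-2 (0.988) and ccmFC (0.988), with 16 of 50. AT2G07774 lies on chromosome 2 from 3303766 to 3304650, and 100.0% of its span matches mitochondrial DNA, at up to 100.0% identity, so its reads too cannot be assigned to one genome.

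cob had other neighbours. Its closest genes were the nuclear BLH2 (AT4G36870, r = 0.974), of the BEL1-like homeodomain family, the mitochondrial ATMG00310 (0.955) and the nuclear AT3G48570 (0.949), annotated as a secE/sec61-gamma protein, and only 1 of its 50 closest was mitochondrial. Its r with cox1, cox2 and cox3 was 0.644, 0.543 and 0.610 over the 9 libraries, against 0.938 to 0.974 among the 3 cox genes. Within a genotype the variance of the cob counts was only 0.399, 2.62 and 1.31 times their mean in wt, clpp2-1 and clpp2-2. The closest genes were also picked as the highest of 20294 r values. The part of counting error in the r values of cob was not tested.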

How the data were processed

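The authors deposited a table of estimated counts (expected counts) per gene, for genes with a sum of at least 10 over the 9 libraries. It was used after rounding to whole numbers. Per the labels' protocols, libraries were made from total RNA with random hexamers; the submitters' processing notes list Salmon 0.14.0, FastQC, DESeq2, DESeq and the build TAIR10, without their roles. The close library totals leave scaling before deposition possible.

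Counts were fitted with edgeR 4.0.16 in R 4.3.3 (filterByExpr, 1960 genes removed; TMM factors 0.974 to 1.02; 1 quasi-likelihood fit of all 9 libraries, 4 contrasts), with Benjamini-Hochberg adjustment and a threshold of 0.05. CPM use TMM library sizes, and log2 CPM a prior count of 2. Ratios and shares per library were compared by exact permutation tests over libraries in SciPy 1.17.1. The fit was tested on simulated data. Gene models, editing sites and sequences are RefSeq TAIR10.1, and nuclear copies were found with BLAST 2.17.0 (at least 95% identity over 100 bp). Alternatives were DESeq2 1.42.0 size factors and Wald test, limma-voom (limma 3.58.1), no filter, a replicate block, only the groups compared, library sizes without organelle genes, and each library left out.

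The genes and lists were chosen with earlier results of these data known. Besides the 4 genes and CLPP2, the text gives values of up to 3 members of each list with the smallest p over both lines and of the 3 genes closest to each member. Outside this rule it gives values of nad3, number 4 by that p in the complex I list, and of ccmC and COX19-2. Same-numbered wt and clpp2-1 libraries deviated together across 11803 genes (r = 0.115 to 0.253), those of wt and clpp2-2 did not (-0.00566 to 0.0874), nor did those of the lines (-0.179 to -0.00959); blocked values stand beside the results of clpp2-1 where they change them. If the deposited counts were not rescaled, all replicate pairs were further apart than counting error alone allows (chi-square per gene 6.19 to 32.7).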

Additional observations from a re-analysis of the deposited data

How the results depend on the processing

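The calls of cox1, cox2 and cox3 in clpp2-2, and of cox2 and cox3 over both lines, held under every alternative run. In clpp2-1, cox2 was lost with only the groups compared (log2 1.23, 0 of the 4 genes called, 21 genes in all), and DESeq2 called 3 of the 4 (cox1 log2 0.43 and cox3 log2 0.52 added). Over both lines, cox1 was lost with the replicate block (log2 0.53), with wt 1 and clpp2-1 1 left out (0.55, chosen after seeing the data) and with 6 single libraries left out (0.48 to 0.58 over the 9). The log2 change of cob in clpp2-1 ran from -0.0507 to 0.0978 with single libraries left out. The causes were not tested.

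Counts of all genes called moved more. For clpp2-1 they were 23 with the block, 23 without wt 1 and clpp2-1 1, 88 by DESeq2 and 23 to 63 with single libraries left out. For clpp2-2 they were 1216 with only the groups compared, 727 without wt 1 and clpp2-1 1, 3357 by DESeq2 and 502 to 4243 with single libraries left out, and for both lines 102 with the block, 94, 1211 and 67 to 2168. Between the lines they were 513 with the block, 1494, 336, 1774 and 171 to 1463.

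All 12 measures per library that passed over both lines kept their direction under the block (adjusted p = 0.288) and without wt 1 and clpp2-1 1 (adjusted p = 0.0595), where the exact permutation tests as run cannot go below p = 0.25 and 0.0476. Under the block the differences were those of the report: in percentage points -0.800 for the 4 genes, -0.422 cob, -0.580 cox1, 0.404 cox2 and -0.202 cox3, and on the log2 scale 0.40 for cox1 over cob, 1.18 cox2 over cob, 0.53 cox3 over cob, 0.77 cox2 over cox1, 0.65 cox2 over cox3, -0.43 for complex V and 0.77 for nuclear complex IV. Without wt 1 and clpp2-1 1 they were -0.782, -0.429, -0.592, 0.444 and -0.205 points, and log2 0.40, 1.22, 0.53, 0.82, 0.69, -0.43 and 0.80. With named protein-coding genes as the total, the share of the 4 differed by -0.616 points, and between the lines by 0.00232 points (cob 0.0248). The ratio to complex I turned to log2 0.0432 in clpp2-1 and 0.0212 over both lines with the mean of log2 counts. The ratio of cob to nuclear complex III in clpp2-1 turned to log2 0.00955 without wt 1 and clpp2-1 1 and ran from -0.0945 to 0.0292 with single libraries left out, and cox3 over cox1 over both lines from 0.11 to 0.15. Between the lines, small uncalled differences changed sign with single libraries left out: shares of cob -0.0227 to 0.0263, cox2 -0.186 to 0.00853 and cox3 -0.00809 to 0.0425 points, and log2 ratios of cox1 to cob -0.108 to 0.0264, cox3 to cob -0.0548 to 0.0829, cox2 to cox1 -0.0979 to 0.0519 and the 4 genes to complex I -0.0810 to 0.0513. So did the log2 changes of COX5b-2 in clpp2-1 (-0.0176 to 0.0490) and of COX7a (-0.0143 to 0.104) and CYTC-1 (-0.0240 to 0.0545) in clpp2-2. Adding the counts of the chromosome 2 copies was not run, since they have no rows here. At 180 to 835 counts per library, counting error limits small differences in cob most.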
